A study of Mus musculus with 2 samples.

Results

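Genes of the neutrophil granules and of the S100 alarmins were followed through CD31+CD44+ cells of the mouse embryo at embryonic day 10.0. The 10 genes were Mpo, Prtn3, Elane, Ctsg and Ms4a3, taken here as early granule genes, and S100a8, S100a9, Stfa1, BC100530 and Hp, taken as late genes. They are 10 of the 24543 genes in the count tables, and all 10 were found in both tables. The genes were selected on their measured levels across cell populations of these same data, so their pattern over populations is a description and was not tested. The cells came from the caudal region of cKO embryos (Vec-Cre;Nupr1 fl/fl) and of littermate controls (Nupr1 fl/fl and Nupr1 fl/+). Vec-Cre drives recombination in vascular endothelium, so cells that did not pass through an endothelial stage may keep Nupr1. Cells of both genotypes were marked with hashtag oligos, sorted and run as 1 pool per replicate, in 2 replicates. All groups were sorted for CD31 and CD44, so granule-bearing cells without these proteins were not sampled.

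Neutrophils store antimicrobial proteins in granules that are filled in order while the cell matures. The azurophil granule proteins myeloperoxidase, proteinase 3, neutrophil elastase and cathepsin G are made first, at the promyelocyte stage, whereas specific and gelatinase granule proteins follow later. S100a8 and S100a9 pair to form calprotectin, a calcium- and metal-binding alarmin that becomes very abundant in maturing neutrophils. In the embryo, granulocyte and monocyte precursors arise from haemogenic endothelium of the yolk sac before stem cells supply the blood.

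The genes lie on 7 chromosomes in GENCODE M21 on GRCm38, joined by symbol. Mpo, the peroxidase of azurophil granules, lies at chr11:87793581-87804413. Prtn3 and Elane, 2 serine proteases of the same granules, are neighbours on the plus strand at chr10:79874476-79883174 and chr10:79886247-79888215, with 3073 bases between them. Ctsg, the gene of cathepsin G, lies at chr14:56099881-56102574, and Ms4a3, a membrane-spanning protein of granulocyte and monocyte precursors, at chr19:11629496-11640851. S100a8 (chr3:90668978-90670035) and S100a9 (chr3:90692632-90695721) face each other across 22597 bases. The stefin genes Stfa1 (chr16:36276951-36285373) and BC100530 (chr16:36359382-36367748) encode inhibitors of cysteine proteases and stand in 1 cluster, and Hp, the gene of the haemoglobin-binding protein haptoglobin, lies at chr8:109575128-109579172. All 10 are protein-coding.

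Promoter windows were available in RefSeq (GRCm38.p6) for 8 of the 10 genes, from 250 bases before the start site to 50 after it. They are shown for the 2 neighbouring proteases, for Mpo and for the S100 pair, since the co-detection described below turns on these genes. For Mpo, Prtn3, Elane and S100a8 the RefSeq start lies inside the GENCODE span of the gene, and it lies furthest inside for Prtn3. Capitals mark the letters GAGGAA (the core bound by PU.1), TTGCNNAA (C/EBP) and TGTGGT (RUNX), searched on both strands and read 5′ to 3′ on the strand of the gene.
Mpo, chr11:87793534-87793833, plus strand: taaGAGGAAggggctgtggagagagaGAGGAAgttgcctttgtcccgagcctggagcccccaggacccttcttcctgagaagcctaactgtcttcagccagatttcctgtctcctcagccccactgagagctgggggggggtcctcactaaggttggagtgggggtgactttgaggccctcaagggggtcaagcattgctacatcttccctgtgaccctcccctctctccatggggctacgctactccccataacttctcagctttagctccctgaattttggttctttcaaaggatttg
Prtn3, chr10:79879417-79879716, plus strand: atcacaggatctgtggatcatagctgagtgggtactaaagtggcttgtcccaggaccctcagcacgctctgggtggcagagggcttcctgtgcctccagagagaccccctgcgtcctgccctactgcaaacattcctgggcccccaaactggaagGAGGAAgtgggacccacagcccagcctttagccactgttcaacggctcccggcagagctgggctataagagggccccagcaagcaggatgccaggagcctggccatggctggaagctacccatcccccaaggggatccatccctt
Elane, chr10:79886062-79886361, plus strand: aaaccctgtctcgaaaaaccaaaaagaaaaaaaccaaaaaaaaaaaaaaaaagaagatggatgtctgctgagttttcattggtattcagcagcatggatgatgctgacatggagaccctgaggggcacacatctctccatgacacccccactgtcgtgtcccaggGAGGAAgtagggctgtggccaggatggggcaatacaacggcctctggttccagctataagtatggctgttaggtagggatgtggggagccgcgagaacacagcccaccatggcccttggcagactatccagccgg
S100a8, chr3:90668821-90669120, plus strand: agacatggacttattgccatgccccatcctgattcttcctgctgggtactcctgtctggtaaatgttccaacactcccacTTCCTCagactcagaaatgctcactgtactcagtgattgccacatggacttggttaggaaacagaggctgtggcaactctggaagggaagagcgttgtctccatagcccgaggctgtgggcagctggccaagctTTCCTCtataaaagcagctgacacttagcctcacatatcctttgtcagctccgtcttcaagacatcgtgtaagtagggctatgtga
S100a9, chr3:90695672-90695971, minus strand: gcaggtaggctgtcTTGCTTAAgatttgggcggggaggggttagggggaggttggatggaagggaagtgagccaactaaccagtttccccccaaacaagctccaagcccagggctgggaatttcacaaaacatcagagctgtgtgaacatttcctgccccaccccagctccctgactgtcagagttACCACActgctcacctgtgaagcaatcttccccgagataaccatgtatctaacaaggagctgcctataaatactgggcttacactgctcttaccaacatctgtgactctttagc
GAGGAA occurred in the windows of 7 of 8 genes, against 28.3% of 32851 windows of the same length over all genes. Prtn3 and Elane carried it at 95 and 85 bases before the start, in both cases followed by the letters gt. The C/EBP letters were found in 3 of 8 windows (10.8% of all windows) and the RUNX letters in 3 of 8 (16.8%). A match of letters is a description and not a measured binding site.

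The tables held 678 cells in replicate 1 (344 cKO, 334 control) and 1461 in replicate 2 (713 cKO, 748 control), with 32430285 and 91511039 UMIs, and no barcode was shared. Over all cells replicate 1 therefore carries the larger counting error. Cells were put into classes by the first gate they met, with C1qa, Gp9, Fcgr3 and Gja5 set at 1 UMI or more per 10000 UMIs of the cell: 624 macrophage (C1qa), 225 megakaryocyte (Gp9), 183 myeloid (Fcgr3 without C1qa), 231 EHT (Gfi1 with Neurl3, the endothelial to haematopoietic transition), 122 progenitor (Ptprc with Myb) and 458 arterial (Gja5) cells, while 296 met none. Gfi1, Neurl3, Ptprc and Myb were set at 1 UMI or more, also in the alternative with gates at 2 per 10000. That alternative made only the other markers stricter and so passed more cells on to the EHT and progenitor gates. In the EHT gate replicate 1 held more cells than replicate 2, with 72 cKO and 60 control against 49 and 50. UMIs were summed per class, genotype and replicate, and levels are given in CPM, the UMIs of a gene per 1000000 UMIs of the sum. The myeloid sum of cKO replicate 1 held only 7 cells, against 29, 70 and 77 in the other 3 sums, so its values rest on few cells. In the myeloid gate, the 6 macrophage markers summed to between 13 and 580 CPM, against 3701 to 5166 in the macrophage gate, and C1qb was detected in 49.2% of cells. Mast cell, basophil and eosinophil markers reached 932 CPM in control replicate 1, against 50.7 to 158 in the other 3 myeloid sums. Of the myeloid gate cells, 116 also met another gate. Mean levels of the members in the myeloid and progenitor gates were also taken under alternatives, among them other gates and cells of 1 gate only. Over all alternatives 104 means stayed within 1 SD of the main value and 16 moved further. With cells of 1 gate only, the myeloid sum of cKO replicate 1 held 1 cell. The part of macrophage-like and eosinophil-like cells in the levels below was not tested.

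Levels of the early genes fell along the classes from the myeloid gate to the endothelium, as the plot of levels by class shows. Mpo stood at 786, 1401, 1999 and 1336 CPM in cKO replicates 1 and 2 and control replicates 1 and 2 of the myeloid gate, with a mean of 1380 ± 496 (SD, n = 4 sums). In the progenitor gate it was 358 ± 31.7 CPM, in EHT cells 41.7 ± 16, in macrophages 17.8 ± 17.3 and in arterial cells 1.80 ± 1.17. The myeloid and progenitor values did not overlap, whereas the EHT and macrophage values did.

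Prtn3 followed the same order, with 528, 1593, 1669 and 1966 CPM in the 4 myeloid sums and 590 ± 152 CPM in the progenitor gate. Here the ranges of the myeloid and progenitor gates overlapped, through the 7-cell sum. EHT cells held 110 ± 33.6 CPM and macrophages 101 ± 44.5, and these ranges overlapped too. Arterial cells were at 1.82 ± 1.34 CPM. At least 1 UMI of Prtn3 was seen in 99.2% of progenitor and 68.8% of EHT cells, but in 5.02% of arterial cells. When every cell was thinned to 6000 UMIs, the shares were 75.2%, 31.2% and 0.451%, in the same order.

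Elane, Ctsg and Ms4a3 were more narrowly placed. Elane was at 2.90, 135, 55.0 and 255 CPM in the myeloid sums (cKO replicates 1 and 2, control replicates 1 and 2) and at 4.79 ± 2.40 in the progenitor gate. No UMI of Elane was found in the 458 arterial cells, which allows a share of cells with a UMI of up to 0.802% (upper exact binomial 95% limit, counting error only). Ms4a3 was at 23.2, 156, 350 and 210 CPM in the myeloid sums and at 7.42 ± 5.75 CPM in the progenitor gate, without overlap. Ctsg was the rarest, with 321 UMIs in the whole series, and 98.8% of them lay in the myeloid gate. Only 10 cells held 3 or more UMIs of Ctsg, and the progenitor, EHT and arterial gates held none at all.

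**Figure D1:**
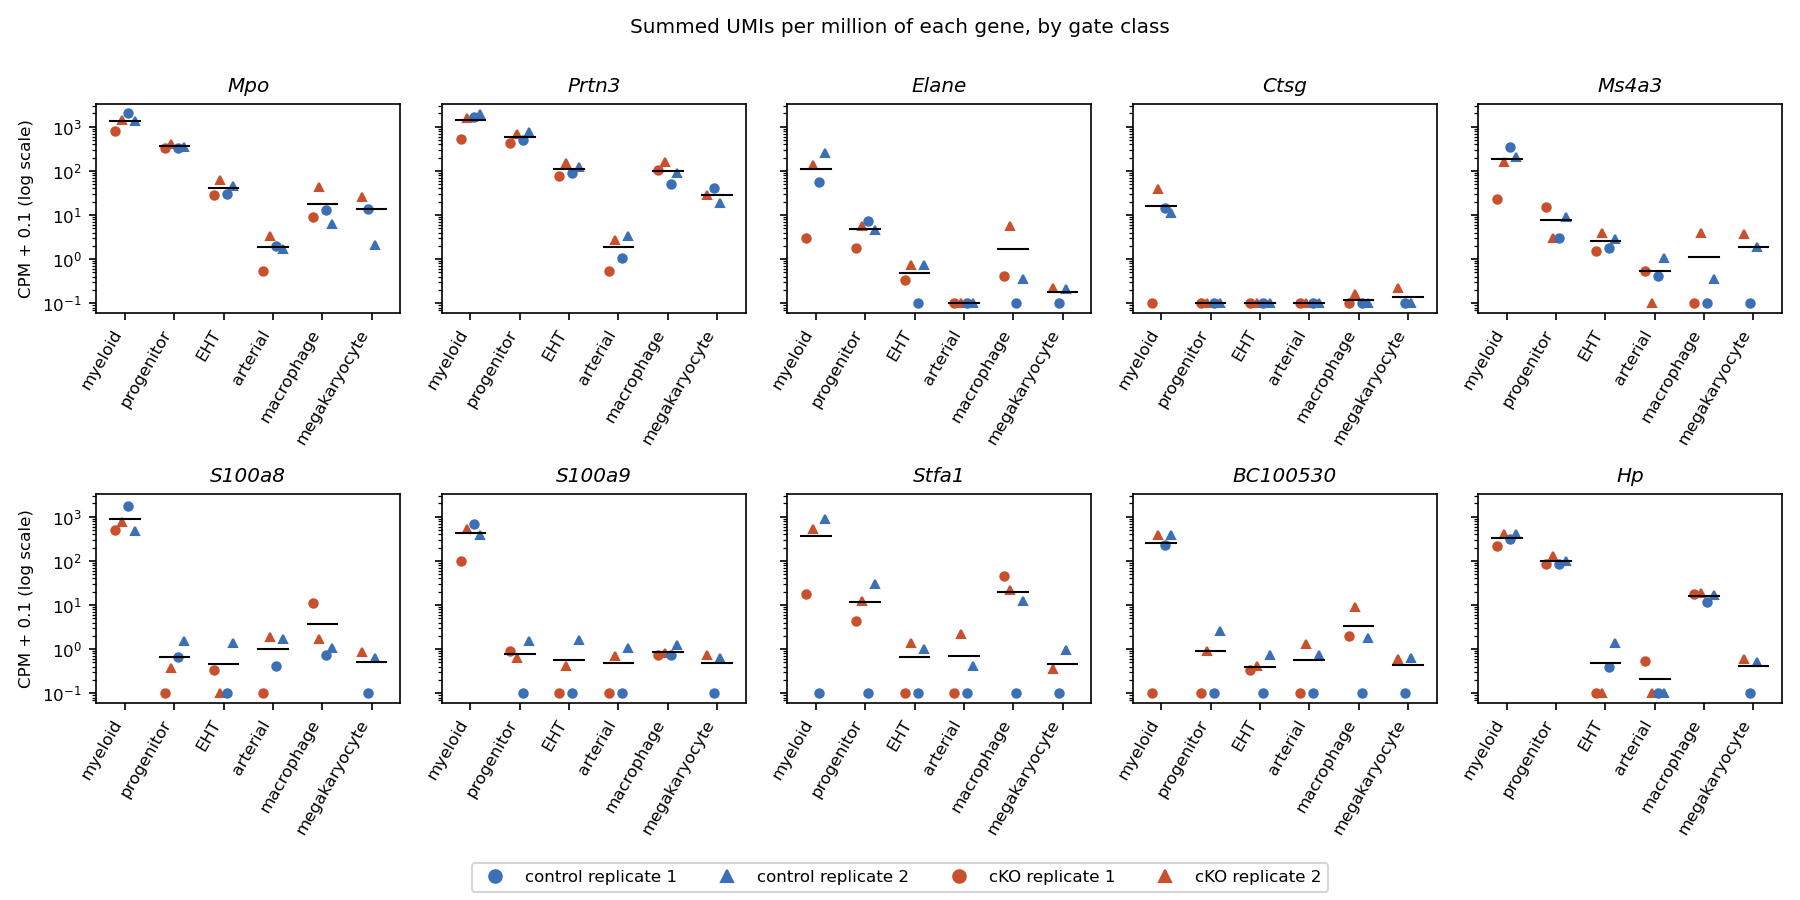
Level of each gene (CPM plus 0.1, log scale) in every sum of the 6 gate classes. Points are sums of UMIs per genotype and replicate and bars are means. All 10 genes had their highest mean in the myeloid gate, and outside it S100a8 and S100a9 were under 3 CPM in every sum but that of S100a8 in cKO replicate 1 macrophages (10.9 CPM).

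Among the late genes, S100a8 and S100a9 were close to absent outside the myeloid gate. S100a8 was at 491, 750, 1783 and 475 CPM in the 4 myeloid sums (cKO replicates 1 and 2, control replicates 1 and 2) and S100a9 at 100.01, 521, 699 and 384. For both genes the value of cKO replicate 1 came from 1 cell. In every other class the mean was under 4 CPM for S100a8 and under 1 for S100a9. A UMI of S100a8 was seen in 2.62% of arterial cells, 4.92% of progenitor cells and 6.41% of macrophages, and after thinning in 1.13% of arterial cells and 0.971% of macrophages. Arterial cells should lack the gene, so shares near theirs are not read as expression. A macrophage gate cell of cKO replicate 1 with 35 S100a8 UMIs stood apart from this level.

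Hp spread furthest among the late genes. It was at 337 ± 93.2 CPM in the myeloid gate, at 98.4 ± 20.3 in the progenitor gate and at 16.3 ± 3.42 in macrophages, and these 3 ranges did not overlap. EHT cells, by contrast, held 0.381 ± 0.588 CPM, with 5 UMIs in 231 cells. Mpo and Prtn3 were thus detected in EHT gate cells that held no measurable Hp. Of the 231 EHT gate cells, 146 also met another gate. Over all 231, Myb was detected in 81.0%, Ptprc in 41.6% and Fcgr3 in 40.7%. The part of cells with these blood genes in the Mpo and Prtn3 levels of the gate was not tested. In the progenitor gate 30.3% of cells held 3 or more UMIs of Hp, and 69.7% held 3 or more of Mpo.

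Stfa1 and BC100530 each had a myeloid sum without a UMI. Stfa1 was at 17.4 and 516 CPM in cKO replicates 1 and 2 and at 0 and 905 CPM in control replicates 1 and 2 of the myeloid gate. BC100530 was at 0, 385, 227 and 396 CPM in the same order. Outside that gate Stfa1 reached 19.7 ± 19.0 CPM in macrophages and 11.5 ± 13.3 in progenitors, whereas BC100530 stayed at 3.18 ± 4.06 CPM or less.

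Other granule and maturation genes were read from 6 lists of genes fixed with earlier results of these data known. Of 11 azurophil and primary granule genes, all were detected, and in the myeloid gate Srgn, which packs granule proteins, and Plac8 were found in 97.3% and 95.1% of cells. These genes were not confined to that gate. Of all 2139 cells, 1666 held a UMI of Srgn, 994 of Plac8 and 2134 of Calr, also of this list. The 10 genes of the specific and gelatinase granules were low in the myeloid gate, at 16.5 CPM (Camp) or less. Ngp and Chil3 had no UMI in 2139 cells, Cd177, Itgb2l and Retnlg had 1 UMI each, and Ltf and Lcn2 had 48 and 37 UMIs. Mmp9 had 161 UMIs in 76 cells and Mmp8 41 in 29 cells, at 0.140 and 1.40 CPM in the myeloid gate. Camp had 237 UMIs in 9 cells, and 227 of these lay in a single cell of cKO replicate 2. Ly6g, the usual surface marker of mature mouse neutrophils, is not a row of the tables. The formyl peptide receptor gene Fpr1 had no UMI, whereas the chemokine receptor gene Cxcr2 was found in 64.5% of myeloid gate cells and in 570 cells of all classes.

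Late genes were mostly detected in cells that also held early genes. A cell was counted as positive for a gene, or for the early or late group, at 3 or more UMIs of a member. In the myeloid gate 103 of 183 cells were positive for both groups, 63 for early genes only, 2 for late genes only and 15 for neither. Late genes were thus found in 62.0% of cells with early genes (exact binomial 95% interval 54.2 to 69.5), while early genes were found in 98.1% of cells with late genes (93.3 to 99.8). Over all 183 cells the shares were 57.4% for late genes (105 cells) and 166 of 183 cells held early genes, so both conditional shares lay close to the shares in the whole gate. The first share was 28.6% in cKO replicate 1 (2 of 7 cells), 65.7% in cKO replicate 2, 65.4% in control replicate 1 and 60.6% in control replicate 2. The second was 100% in 3 of the 4 sums and 95.7% in cKO replicate 2. These intervals cover counting error only, and cells of a sum are not replicates. Hp was positive in 103 of the 105 cells with late genes, and S100a8 and S100a9 in 18 each. Of the 166 cells with early genes, Prtn3 was positive in 159 and Mpo in 147. The shares of the 2 groups are thus mostly those of Hp against Mpo and Prtn3.

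In the progenitor gate 37 cells held both groups, 78 held early genes only and none held late genes only, although 2 did after thinning. All 37 were positive for Hp. In EHT cells 122 of 231 held early genes, and none held late genes, which allows up to 1.58% of EHT cells (upper exact 95% limit). No arterial cell held either. Macrophages differed, with 69 cells holding both, 158 early genes only and 20 late genes only. After thinning to 6000 UMIs, with 2 shallower cells left out, 49 myeloid cells held both groups, 66 early only, 3 late only and 63 neither. The share of late genes among early cells then fell to 42.6%, and early genes were found in 49 of the 52 cells with late genes.

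Gene by gene, the positive cells of the rarer genes in the myeloid gate lay mostly among those of Prtn3, Mpo and Hp, whereas Ms4a3, Stfa1 and Elane cells overlapped in part. Prtn3 was positive in 159 cells, Mpo in 147, Hp in 103, Ms4a3 in 55, Stfa1 in 46, Elane in 40, BC100530 in 24, S100a8 and S100a9 in 18 each, and Ctsg in 10. Ms4a3 and Stfa1 were both positive in 27 cells, with 28 cells positive for Ms4a3 only and 19 for Stfa1 only. For Elane and Stfa1 these counts were 25, 15 and 21, and for Elane and Ms4a3 31, 9 and 24. Each of the 40 Elane cells was also positive for Mpo, Prtn3 and Hp. Each of the 10 Ctsg cells was positive for Elane, Ms4a3 and Hp, and 7 of them for S100a8. Of the 18 S100a8 cells, all were positive for Mpo and Prtn3, 17 for Hp, 16 for Elane and 16 for BC100530. Read the other way, 12.2% of Mpo cells were positive for S100a8 and 66.0% for Hp. A gene with more UMIs passes 3 UMIs more readily, so the order of these counts also holds the order of abundance. Elane and Ctsg, whose proteins share a granule with Mpo, thus marked fewer cells than Hp, which was grouped as late.

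**Figure D2:**
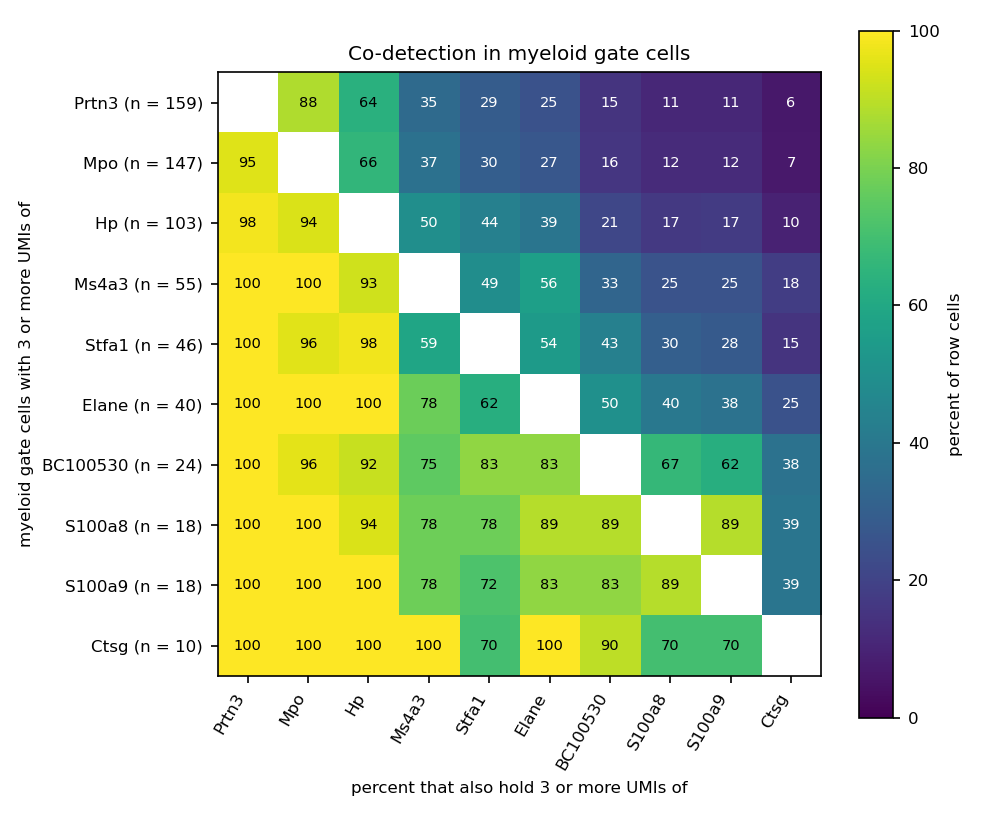
Percent of myeloid gate cells positive for the gene of the row (3 or more UMIs, n in parentheses) that were also positive for the gene of the column. Genes are ordered by number of positive cells. All 18 S100a8 cells held Mpo and Prtn3, whereas 12.2% of Mpo cells held S100a8.

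**Figure D3:**
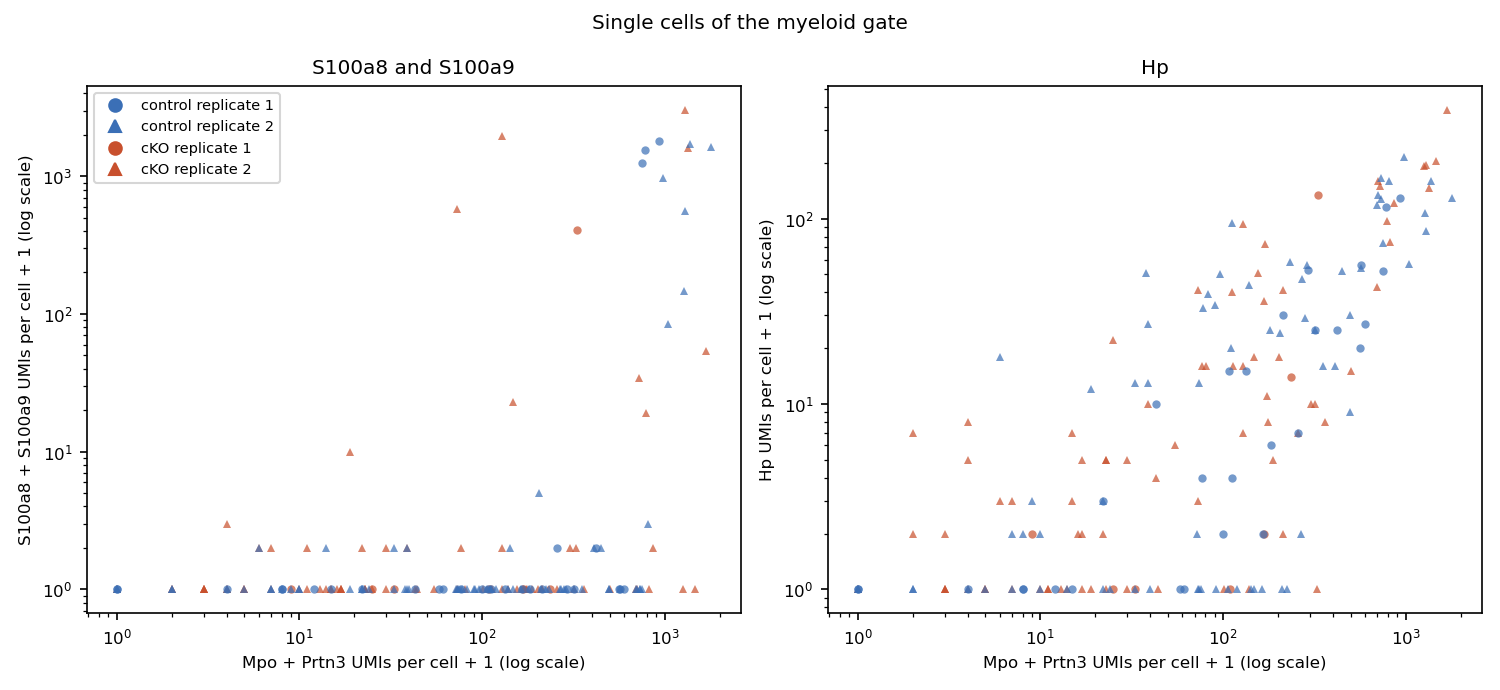
UMIs per cell (plus 1, log scales) in the 183 myeloid gate cells, with Mpo and Prtn3 summed on the horizontal axes and S100a8 and S100a9 (left) or Hp (right) on the vertical ones. Hp was spread over a wide range of Mpo and Prtn3, whereas 20 cells stood at 3 or more UMIs of S100a8 or S100a9.

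The S100 transcripts were concentrated in a handful of cells. In the whole series 21 cells held 3 or more UMIs of S100a8 or S100a9, and 20 of them were in the myeloid gate. These 21 cells held 99.1% of the 10897 S100a8 UMIs and 98.8% of the 6710 S100a9 UMIs. They also held 94.1% of the BC100530 UMIs, 73.4% of Elane, 72.0% of Stfa1, 67.5% of Ms4a3, 40.2% of Ctsg and 30.4% of Hp, but 23.7% of Mpo and 26.6% of Prtn3. They were found in both genotypes and replicates, with 1 myeloid gate cell in cKO replicate 1, 9 in cKO replicate 2, 3 in control replicate 1 and 7 in control replicate 2. The S100a8 level of each myeloid sum therefore rests on a few cells, and without the cell richest in S100a8 it was 0, 475, 1142 and 276 CPM in the same order. The myeloid gate S100 cell of cKO replicate 1 held 15 UMIs of Xist and none of the 4 chromosome Y genes read, while the macrophage gate one held 3 UMIs of Y genes and none of Xist. In all, 3 of the 344 cells of that genotype and replicate had Xist without chromosome Y genes, against 310 of the 334 control cells of the pool. The genotype label of this myeloid gate cell is therefore uncertain and was not tested. It held all S100a8 and S100a9 UMIs of its sum and 133 of the 148 Hp UMIs.

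S100a8 and S100a9 were not in a fixed proportion. In control replicate 1 the 3 cells held 1302, 1096 and 906 UMIs of S100a8 with 486, 460 and 347 of S100a9. A cell of cKO replicate 2 held 1393 of S100a8 and 1633 of S100a9, while another held 1611 and 345. At the extreme, a cell of control replicate 2 held 26 UMIs of S100a8 with 938 of S100a9, 943 of Stfa1 and 658 of BC100530. Mpo was present throughout, with 13 to 604 UMIs in the 20 myeloid gate cells.

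Transcription factors differed between these 20 cells and the other 163 of the gate, as a description of cells chosen on S100 genes. Cebpe, needed for the late granule stages, was at 438 CPM in the former and 40.2 in the latter, and Gfi1, a repressor that favours granulocytes, at 56.9 and 3.13. Irf8, which favours monocytes, went the other way, with 7.33 and 85.9 CPM. Mpo itself was at 3614 and 1109 CPM, and Cd34 at 157 and 151. Cd34, a gene of progenitors and endothelium, was detected in all 20 cells, and the proliferation gene Mki67 in 95%, against 87.1% and 87.7% of the others. In the 78 cells without late genes Cebpe was at 0.888 CPM and Kit at 55.6.

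**Figure D4:**
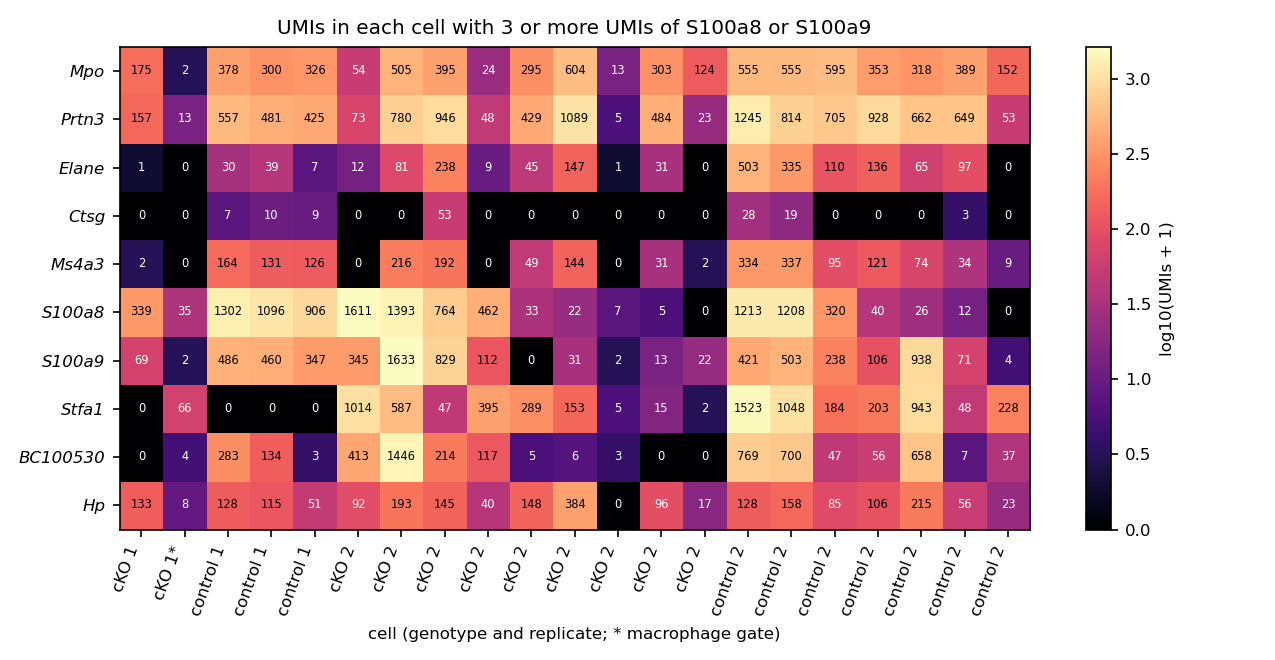
UMIs of the 10 genes in each of the 21 cells with 3 or more UMIs of S100a8 or S100a9 (colour, log10 of UMIs plus 1). Columns are cells, named by genotype and replicate. Mpo and Prtn3 were present in all 21, and Stfa1 was 0 in the myeloid gate cell of cKO replicate 1 and in the 3 control replicate 1 cells that held 906 to 1302 S100a8 UMIs.

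Eosinophil granule genes were found in some of the same cells. In the myeloid gate 9 cells held 3 or more UMIs of Prg2 or Epx, genes of eosinophil granules. All 9 were positive for Mpo, Prtn3, Ms4a3 and Hp, 5 for Elane and none for Ctsg, and 4 were among the S100 cells. They held 2608 of the 6639 S100a9 UMIs and 1441 of the 10774 S100a8 UMIs of the gate.

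Stfa1 was not detected in 1 genotype of 1 replicate. No UMI of Stfa1 was found in the 334 control cells of replicate 1, with 14981582 UMIs, which allows up to 0.200 CPM (3 counts over the sum, counting error only). The cKO cells of the same pool held 162 UMIs in 16 cells, and replicate 2 held 3517 UMIs in cKO and 5696 in control cells. BC100530 in turn had 421 UMIs in the control cells of replicate 1, and 7 in the cKO cells of that pool. Stfa3, a further gene of the cluster, had 0 UMIs in the control cells of replicate 1, against 43, 104 and 17 in cKO replicates 1 and 2 and control replicate 2. Stfa2l1 had 2, 12, 246 and 13 UMIs in the same order. Gm5483, by contrast, had 173 UMIs (11.5 CPM) in the control cells of replicate 1, against 67 (3.84 CPM), 906 (19.7 CPM) and 222 (4.88 CPM). The Stfa1 and BC100530 transcripts of GENCODE M21 were 97.1% identical over 617 aligned bases and shared 88 of 560 stretches of 60 bases. Reads could therefore be split between them or left uncounted, and the level of each gene is uncertain. The part of counting in the missing Stfa1 was not tested.

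The proportion of Prtn3 to Mpo also changed between classes. Prtn3 UMIs per Mpo UMI were 0.672, 1.14, 0.835 and 1.47 in the myeloid sums (cKO replicates 1 and 2, control replicates 1 and 2), and 1.28, 1.66, 1.47 and 2.14 in the progenitor sums. The EHT sums lay higher, between 2.37 and 3.04, and the macrophage sums between 3.60 and 14.8. The 3.60 of cKO replicate 2 was 7.02 without the cell richest in each gene. Within each pair of genotype and replicate the ratio rose from myeloid to progenitor to EHT to macrophage. In macrophages 200 cells were positive for Prtn3 and not Mpo, 26 for both and 1 for Mpo only, and 144 of the Prtn3 cells had no UMI of Mpo. The part of free RNA in these values was not tested.

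**Figure D5:**
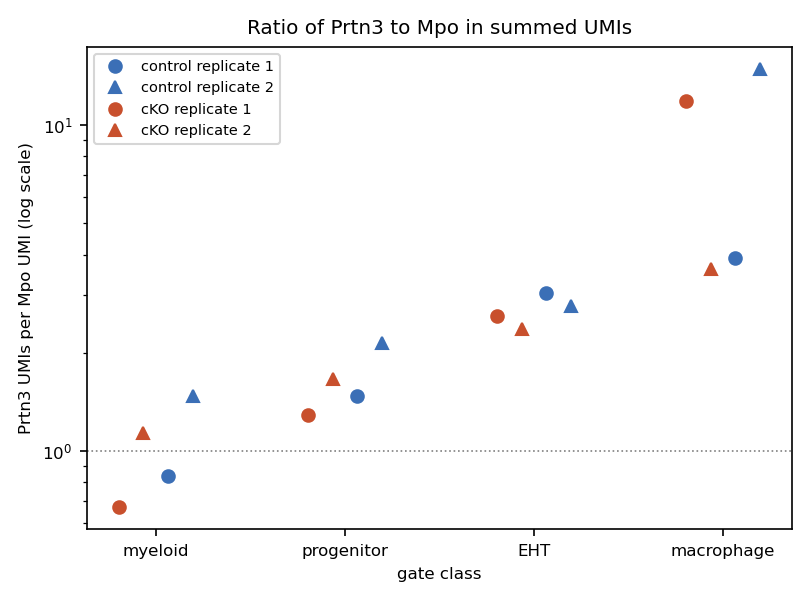
Prtn3 UMIs per Mpo UMI (log scale) in each sum of 4 gate classes. The myeloid sums lay between 0.672 and 1.47, the EHT sums between 2.37 and 3.04 and the macrophage sums between 3.60 and 14.8.

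The effect of Nupr1 loss was compared in 4 classes, starting with the targeted gene. Over all cells Nupr1 was at 0.573 and 1.50 CPM in cKO and at 14.4 and 21.5 CPM in control replicates 1 and 2, in the direction the labels give. In replicate 1 the cells of the genotypes also differed in sex genes: 303 of 344 cKO cells had chromosome Y genes without Xist, and 310 of 334 control cells had Xist without them, so genotype and sex cannot be told apart in that replicate. In replicate 2 Xist without Y genes was found in 411 of 713 cKO and 738 of 748 control cells, and no cell had Y genes without Xist. In EHT cells Nupr1 was the 1 gene of 10095 called by edgeR's quasi-likelihood test (0.00991% called), with a log2 fold change of -3.70 and an adjusted p of 0.00625. Its level there was 1.96 and 2.91 CPM in cKO and 37.0 and 27.0 CPM in control. In macrophages Nupr1 was at 0.312 and 2.33 CPM in cKO and at 32.1 and 44.1 CPM in control.

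In the progenitor gate 0 of 8985 genes were called (0%), with 49 at an unadjusted p under 0.05 and 1 called by DESeq2. Of the 10 members 6 passed the filter on low counts, and none was called there. Mpo was at 338, 404, 335 and 356 CPM in cKO replicates 1 and 2 and control replicates 1 and 2, with a log2 fold change of 0.10 ± 0.25 (SE, n = 2 sums per genotype). Prtn3 was at 433, 671, 494 and 761 CPM, a change of -0.19 ± 0.32, and Hp at 83.4, 127, 84.1 and 99.2 CPM, a change of 0.21 ± 0.30. For each of these 3 genes the groups overlapped, and with gates at 2 per 10000 the changes of Mpo and Hp turned to -0.40 and -0.33. The progenitor class gained cells in that setting, with 24 and 57 in cKO and 32 and 58 in control, against 20, 43, 26 and 33. Elane (-0.46), Ms4a3 (0.25) and Stfa1 (-0.85) were tested at levels under 30 CPM. S100a8 was the 1 of 10 members with every cKO sum below every control sum, at 0 to 4 UMIs per sum, against 8.49% of all genes tested. S100a8 itself did not pass the filter that those genes passed.

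In EHT cells Mpo was at 28.8 and 63.0 CPM in cKO and 29.9 and 45.0 CPM in control, a log2 fold change of 0.33 ± 0.38. Prtn3 was at 74.5 and 149 against 90.8 and 125 CPM, a change of 0.09 ± 0.34. Only these 2 members passed the filter. Their groups overlapped, and for both genes the sums of replicate 2 were higher than those of replicate 1. With gates at 2 per 10000 the changes turned to -0.71 for Mpo and -0.57 for Prtn3, and leaving out each sum gave -0.38 to 0.84 and -0.54 to 0.55. At 2 per 10000 the EHT class was larger, with 72 and 53 cells in cKO and 63 and 51 in control, against 72, 49, 60 and 50. Of all members, Hp alone had every cKO sum below every control sum (11.4% of all genes tested), on 0 UMIs in cKO and 5 in control. With the replicate as a block 15 genes were called (0.149%), none of them a granule gene.

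Macrophages had the most members whose genotype sums did not overlap. Prtn3 was at 107 and 157 CPM in cKO and at 49.1 and 91.1 CPM in control, a log2 fold change of 0.88 ± 0.38. Stfa1 was at 44.9 and 21.5 against 0 and 12.4 CPM, BC100530 at 1.87 and 9.14 against 0 and 1.71, and Hp at 18.1 and 18.9 against 11.3 and 16.7. The 0 of Stfa1 is not particular to macrophages, since none of the 334 control cells of replicate 1 held a UMI of it. With Elane and S100a8, 6 of the 10 members had every cKO sum above every control sum, against 10% of all genes tested. That share covers only genes that passed the filter on low counts, whereas the 10 members include some that did not. Elane did not pass the filter on low counts, and the 6 members that did were not called, in a test over 10714 genes, in which 0 were called (0%), 67 had an unadjusted p under 0.05, and DESeq2 called 1, Nupr1. With the replicate as a block 10 genes were called (0.0933%), among them Prtn3 (log2 fold change 0.90, adjusted p = 0.0220) and BC100530 (2.46, adjusted p = 0.0462).

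Those values rest on few cells and on the gate. A single cell of cKO replicate 2 held 441 of 710 Mpo UMIs, and 1 cell held all 35 S100a8 UMIs of cKO replicate 1. Without the cell richest in each gene, Prtn3 was at 89.8 and 117 CPM in cKO and at 25.9 and 86.9 in control, and Hp at 15.96 and 15.7 against 3.98 and 15.1. For Elane, S100a8, Stfa1 and BC100530 the groups then overlapped, with Stfa1 at 24.9 and 10.2 against 0 and 10.7 CPM. Thus 2 of the 6 members stayed higher in every cKO sum, and with Mpo 3 of the 10 were. The share over all genes was not counted for sums without the richest cell, so these counts have no background beside them. When every gate marker was set at 1 UMI, the log2 fold changes turned to -0.50 for Prtn3 and -2.34 for BC100530. Megakaryocyte markers summed to 436 and 672 CPM in the cKO and 439 and 882 CPM in the control macrophage sums. The part of these cells in the difference was not tested.

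For the myeloid gate the sum of 7 cells was below the 10 cells required, so the values are given without the planned test. Prtn3 was at 528 and 1593 CPM in cKO and at 1669 and 1966 in control, and Ms4a3 at 23.2 and 156 against 350 and 210. These were the 2 of 10 members with every cKO sum below every control sum (6.96% of all genes tested). In a fit that kept the 7-cell sum, added after the values were seen, edgeR called 2 of 9701 genes (0.0206%), Ear2, an eosinophil-associated ribonuclease gene (log2 fold change -5.62), and the stefin gene Stfa2l1 (4.09), each at an adjusted p of 0.0355, and no member. DESeq2 called the same count, 2, whereas with the replicate as a block none was called. Nupr1 was at 0 and 1.22 CPM in cKO and at 3.24 and 15.1 CPM in control there. The share of myeloid gate cells with late genes was 28.6% and 59.7% in cKO and 58.6% and 57.1% in control, and it mostly counts Hp cells. The difference of -13.7 percentage points had a two-sided exact permutation p of 1, where 2 against 2 allows no p below 0.33, and within replicates it was -30.0 and 2.60 points.

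Of the 62 genes of the 6 lists, 32 were tested in the progenitor gate, 27 in EHT cells and 34 in macrophages, and none was called in either direction without the block. In the myeloid gate fit 43 were tested, and Stfa2l1 was the 1 called, as higher in cKO.

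Over the 21 sums of at least 10 cells, the genes most like each marker by Pearson's r of log2(CPM + 1) were named by rule, leaving out the members. Sums of a pool share a library, and the values are a description. Spns3 (r = 0.973), Mgst2 (0.942), Il18rap (0.929), Stap1 (0.926) and Serpinb1a (0.925) were most like Mpo. Gm5483, also of the stefin cluster (0.967), Prg3 (0.958), Ero1l (0.936), Prg2 (0.930) and Lmo4 (0.927) were the non-members most like S100a8. For Stfa1, Mnda (0.820), Acaa2 (0.798), Slc35c2 (0.791) and Sdhd (0.790) were highest. Among the members S100a8 was closest to S100a9 (0.975), BC100530 (0.961) and Ctsg (0.950), while its r with Mpo was 0.609. Outside the myeloid gate the mean of S100a8 was 3.52 CPM or less in each class. Its r values therefore rest largely on the few myeloid sums and on which genes are near absent elsewhere. Cell by cell, all 18 S100a8 cells of the myeloid gate were positive for Mpo and 7 for Ctsg.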

How the data were processed

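Single CD31+CD44+ cells from the caudal region at E10.0 were profiled on the 10x platform, with 2 replicates. Cell Ranger 5.0.1 and mm10 are named in the submitters' processing notes. The authors kept singlets by hashtag, and the deposited values are UMI counts without normalization, with a hashtag label for each cell. Mapping used the default settings, under which Cell Ranger leaves out reads that match several genes. The annotation version is not given in the sources used here. The 3′ UMI counts were not divided by gene length. All 2139 deposited cells were kept, although 101, all of replicate 1, fell outside the limits of the study, which ask for over 1800 genes, over 6000 UMIs and under 5% mitochondrial UMIs. Hashtag singlets had been selected, and no doublet caller was run. Doublets of 2 cells with the same hashtag are not removed by that selection, and their part in the co-detection was not tested.

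The 10 members, the gates and the 6 gene lists were chosen with earlier results of these data known. Named genes were the members, Nupr1, gate markers, at most 5 called genes per comparison, list members, and the 5 genes most like Mpo, S100a8 and Stfa1, of which 1 is not reported here. Prg2, Epx and Mki67 and the stefin genes without Stfa1 in control replicate 1 were singled out after their values were seen.

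UMIs were summed per gate, genotype and replicate (10 cells at least). edgeR 4.0.16 (filterByExpr, TMM, robust quasi-likelihood, Benjamini-Hochberg, threshold 0.05; R 4.3.3) compared cKO with control. The fits were tested on simulated data. Genotypes of a replicate were run as 1 pool, so the numbers pair the sums: deviations of paired sums correlated with r = 0.461 (progenitor), 0.398 (EHT), 0.446 (macrophage) and 0.260 (myeloid). Alternatives were the replicate block, DESeq2 1.42.0, RLE, no low-count filter, other gates, positive at 1 or 10 UMIs, thinning to 6000 UMIs, the stated limits and each sum left out. Added later were the 7-cell myeloid sum and sums without the top cell. Coordinates and transcripts are from GENCODE M21, promoters from RefSeq. P-values measure the spread between 2 pools.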

Additional observations from a re-analysis of the deposited data

Results flagged for a closer look

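In 3 members every cKO sum stood below every control sum in 1 class and above in another. The difference between classes was not tested. The share of all genes with such opposite directions was not counted, so the pattern has no background beside it. Prtn3 differed by -757 CPM (mean of both replicates, cKO minus control) in myeloid gate cells and by 61.9 CPM in macrophages. The myeloid mean includes the 7-cell sum of cKO replicate 1, and the macrophage direction turned when gate markers were set at 1 UMI. S100a8 differed by -0.847 CPM in progenitor gate cells, on 0 to 4 UMIs per sum, and by 5.47 CPM in macrophages, where 1 cell held all 35 UMIs of cKO replicate 1. Hp differed by -0.763 CPM in EHT cells, on 5 UMIs in all, and by 4.50 CPM in macrophages.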

How the results depend on the processing

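The count of genes called was within 1.5 times of the value given under RLE normalization in all 4 classes and under gates at 2 per 10000 in the 3 classes fitted. It moved to 1 (DESeq2) and 5 (no low-count filter) in progenitor gate cells, 15 (replicate block), 2 (DESeq2), 69 (no filter) and 0 (cells of 1 gate only) in EHT cells, 10 (replicate block), 1 (DESeq2) and 21 (no filter) in macrophages, and 0 (replicate block), 8 (no filter), 0 (gates at 1 UMI) and 0 (stated cell limits) in the myeloid gate with the 7-cell sum. Leaving out each sum in turn, which assumes that a lone sum varies like the others, gave 7 to 31, 3 to 83, 10 to 43 and 0 to 85 calls. The replicate block changed no call of a member apart from Prtn3 and BC100530 in macrophages. Late genes among early cells moved from 62.0% to 77.4% at 1 UMI and to 42.6% after thinning, and without each sum ranged from 59.6% to 63.5%. Early genes among late cells reached 100% at 1 UMI and with gates at 1 UMI, were at 94.2% after thinning, and ranged from 96.9% to 100% without each sum. The difference in late share turned to 3.66 points with cells of 1 gate only and ranged from -29.3 to 1.86 without each sum, the last without cKO replicate 1. Log2 fold changes turned with gates at 2 per 10000 to -0.40 (Mpo), -0.63 (Ms4a3) and -0.33 (Hp) in progenitor gate cells and to -0.71 (Mpo) and -0.57 (Prtn3) in EHT cells. That setting left the markers of these gates at 1 UMI and added cells to both classes. In macrophages they turned with gates at 1 UMI to -1.06 (Mpo), -0.50 (Prtn3), -2.95 (S100a8), -0.57 (Stfa1), -2.34 (BC100530) and -0.20 (Hp), and with cells of 1 gate only to -0.78 (Mpo), -0.46 (BC100530) and -0.16 (Hp). Without each sum they ranged in progenitor gate cells from -0.10 to 0.26 (Mpo), -0.61 to 0.21 (Prtn3), -1.06 to 1.48 (Ms4a3), -2.03 to 7.30 (Stfa1) and -0.20 to 0.50 (Hp), and in EHT cells from -0.38 to 0.84 (Mpo) and -0.54 to 0.55 (Prtn3). The causes were not tested. Progenitor and EHT fits with gates at 1 UMI, and myeloid fits with stricter gates or cells of 1 gate only, were not run because a sum held too few cells.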
